A study of Mus musculus with 4 samples.

Results

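The genes described here encode the protein subunits of the mitochondrial ribosome. They were taken as every gene whose single platform symbol starts with Mrps or Mrpl followed by a digit, and 76 such genes were named on the array. Each gene was read from 1 probe set, the one whose mean on the 4 arrays was highest, and it was kept where its highest value was not under a floor of 3.29 on the log2 scale, which is the table's median. That left 73 members among 11653 genes above the floor. Of the 73 members, 60 exceeded the floor on every one of the 4 arrays. The 3 genes just outside the floor were Mrps11, Mrpl14 and Mrpl54, with highest values of 2.91, 2.82 and 2.49. The 3 members just inside it were Mrps27, Mrpl4 and Mrpl10, with highest values of 3.37, 3.57 and 3.98.

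The study set sorted blood progenitors of mice without Trib1 beside those of wild-type mice. Trib1 encodes a pseudokinase adaptor that directs C/EBP transcription factors to a ubiquitin ligase. There were 4 groups with 1 array each: Trib1-/- granulocyte monocyte progenitors (Trib1-/- GMP), wild-type GMP, Trib1-/- cells labelled MDP (Trib1-/- MDP) and wild-type MDP. The cell type label of the last 2 groups reads macrophage dendritic cell, and MDP usually stands for the progenitor of these cells. All mice were of a mixed C57BL6J/129SV background and all cells were unstimulated and untreated. The labels give no age, no sort gates, no number of animals behind an array and no extent of the Trib1 deletion. Each group is a single array, so the differences were not checked against replicates and carry no p-value. The number of arrays limits the precision. Differences are log2 differences, and a gene was counted as 2-fold apart from a difference of 1 upwards or -1 downwards.

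The Trib1 probe set did not check the labels. It read 5.10 in Trib1-/- GMP and 4.95 in wild-type GMP, then 5.56 in Trib1-/- MDP and 5.99 in wild-type MDP. The array medians over all probe sets lay between 3.27 and 3.31. All 9 GMP and granulocyte markers exceeded the floor in both GMP samples, and they averaged 5.26 and 5.29 on the Trib1-/- and wild-type MDP arrays, against 8.24 and 8.72 on the Trib1-/- and wild-type GMP arrays. Csf1r, the receptor gene of macrophage colony-stimulating factor, read 7.81 and 7.82 on the Trib1-/- and wild-type MDP arrays, against 6.01 and 5.997 on the Trib1-/- and wild-type GMP arrays. Kit, usually a marker of the MDP, was below the floor in both (2.69 in Trib1-/- MDP and 2.43 in wild-type MDP). Over all probe sets, Trib1-/- GMP and wild-type GMP had the highest correlation of any pair of arrays (0.977), and the MDP arrays followed (0.976). With Trib1-/- MDP and wild-type MDP, the wild-type GMP array correlated less (0.950 and 0.948) than Trib1-/- GMP did (0.967 and 0.965). Each value of GMP genotype, and of cell type in wild type, rests on that single array, and neither can be formed without it.

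Mitochondrial ribosomes translate the few proteins still encoded by mitochondrial DNA, all of them subunits of the respiratory chain and ATP synthase. Their ribosomal RNAs come from the mitochondrial genome, but every ribosomal protein is encoded in the nucleus, made in the cytosol and imported. Some of these proteins have counterparts in the bacterial ribosome, and others were added during the evolution of mitochondria. Growing and dividing cells, myeloid progenitors among them, need both cytosolic and mitochondrial ribosomes.

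Across the members, wild-type GMP gave the highest of the 4 readings for 58 of 73 genes, where 37.1% of all genes above the floor had their highest reading there. Trib1-/- MDP was highest for 7 members, wild-type MDP for 5 and Trib1-/- GMP for 3. The median reading of the members was 4.93 in Trib1-/- GMP and 5.58 in wild-type GMP, and 4.50 in Trib1-/- MDP and 4.72 in wild-type MDP. The medians of all genes above the floor lay closer together, at 4.75 in Trib1-/- GMP, 4.85 in wild-type GMP, 4.71 in Trib1-/- MDP and 4.72 in wild-type MDP. The wild-type GMP array therefore carried the widest distance between the members and the rest of the genes. A sorted sample does not tell a lower share of cells of one kind from less RNA per cell.

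**Figure D1:**
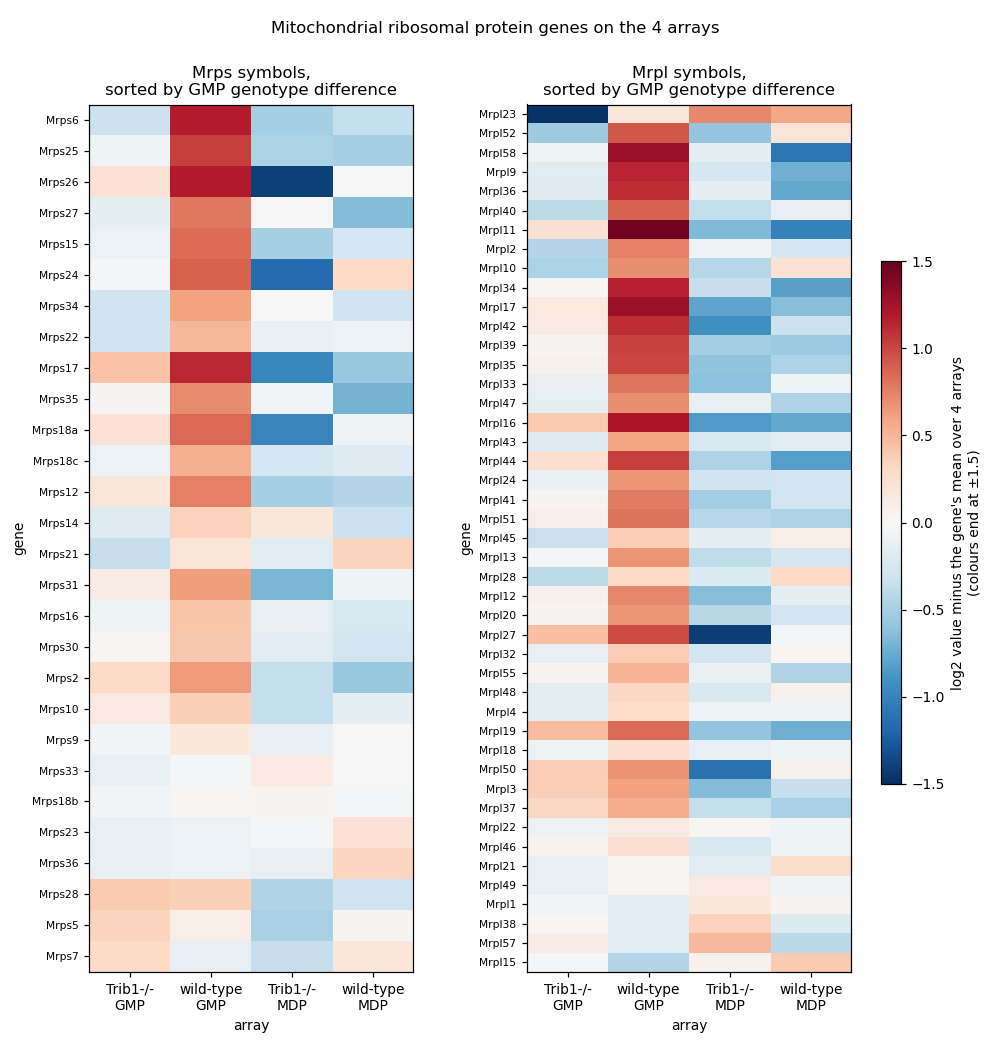
Heat map of the 73 members, one row per gene and one column per array, coloured by the log2 value minus the gene's own mean over the 4 arrays (colours end at ±1.5). Genes with Mrps symbols are on the left and those with Mrpl symbols on the right, sorted by the GMP genotype difference, and the wild-type GMP column is the reddest for 58 of 73 genes.

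In GMP, 66 of 73 members were lower in Trib1-/- than in wild type, against 55.2% of all genes. The median difference was -0.63 (interquartile range of the members -0.92 to -0.25), against -0.06 for all genes above the floor. At least 2-fold lower were 13 members, against 3.16% of all genes, and 0 were at least 2-fold higher, against 0.481% of all genes. Because a gene can reach the floor through the one array where it is high, the 60 members above the floor on all arrays were also counted: 53 were lower, 8 of them at least 2-fold, with a median of -0.60. Of the 9265 genes above the floor on all arrays, 55.7% were lower and 2.35% at least 2-fold lower, with a median of -0.06. For all 76 genes with no floor the median was -0.62.

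Of the 5 lowest members, Mrpl23 encodes a large subunit protein at the mouth of the polypeptide exit tunnel. It read 4.09 in Trib1-/- GMP and 5.73 in wild-type GMP, while Trib1-/- MDP and wild-type MDP read 6.27 and 6.13. Trib1-/- GMP was thus the one low array for this gene, by 3.12-fold against wild-type GMP. Mrps6, a small subunit protein with a bacterial counterpart, read 3.76 in Trib1-/- GMP and 5.25 in wild-type GMP, and 3.57 and 3.72 in Trib1-/- and wild-type MDP. Here wild-type GMP was the one high array, and a second probe set differed by -1.61 where the first differed by -1.499. Mrpl52, a large subunit protein particular to mitochondria, read 4.46 in Trib1-/- GMP and 5.93 in wild-type GMP, with 4.41 in Trib1-/- MDP and 5.19 in wild-type MDP. Its difference in GMP was -1.47, and its 3 other probe sets above the floor read -1.49, -1.08 and 0.06.

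Mrpl58 encodes a peptidyl-tRNA hydrolase that is built into the large subunit and rescues stalled ribosomes. It read 3.05 in Trib1-/- GMP and 4.40 in wild-type GMP, and only the second of these was above the floor. Raised to the floor, its difference was -1.12 in place of -1.35. Mrpl9, a large subunit protein with a bacterial counterpart, read 4.85 in Trib1-/- GMP and 6.18 in wild-type GMP, with 4.77 in Trib1-/- MDP and 4.31 in wild-type MDP. Its probe sets disagreed: the one used read -1.32 and the others -1.36 and 0.69.

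The stalk of the large subunit, where translation factors are recruited, had 3 of its 4 listed genes above the floor, all lower in Trib1-/- GMP. The other, Mrpl53, was not among the genes named on the array. Mrpl11, at the base of the stalk, read 5.58 in Trib1-/- GMP and 6.79 in wild-type GMP. Its 3 probe sets above the floor were all lower, with differences of -1.21, -0.85 and -0.997. Mrpl10, which anchors the stalk dimers, read 2.80 in Trib1-/- GMP and 3.98 in wild-type GMP, a difference of -1.17 that was -0.69 once raised to the floor. Mrpl12, the stalk protein itself, which is also known to bind the mitochondrial RNA polymerase, read 4.43 in Trib1-/- GMP and 5.08 in wild-type GMP (-0.66). Of these 3 stalk genes, 2 were at least 2-fold lower before values were raised and 1 after. Of all 73 members 66 were lower, 13 of them at least 2-fold, so this is not read as particular to the stalk. Of all genes above the floor, 55.2% were lower and 3.16% at least 2-fold lower.

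Around the exit site of the nascent chain all 8 listed members were lower in Trib1-/- GMP, with a median of -0.81. At least 2-fold lower were 2 of them (Mrpl23 and Mrpl17). Of all 73 members 66 were lower, 13 of them at least 2-fold, and of all genes 55.2% were lower and 3.16% at least 2-fold. Mrpl17 read 4.67 in Trib1-/- GMP and 5.80 in wild-type GMP (-1.13). Mrpl45, which holds the ribosome at the inner membrane, read 3.35 in Trib1-/- GMP and 4.05 in wild-type GMP (-0.70). Mrpl24, also at the tunnel exit, read 7.23 in Trib1-/- GMP and 7.99 in wild-type GMP (-0.76). The central protuberance, which touches the tRNAs and the small subunit, had 5 of 6 members lower, 1 of them at least 2-fold, and a median of -0.38. The differences between these sites, and from the members as a whole, were not tested.

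Further members at least 2-fold lower in Trib1-/- GMP were Mrpl2, whose bacterial counterpart lies near the peptidyl transferase centre, and Mrpl34, a small protein with a bacterial counterpart. Mrpl2 read 3.57 in Trib1-/- GMP and 4.77 in wild-type GMP, and Mrpl34 read 4.09 in Trib1-/- GMP and 5.22 in wild-type GMP. The 13 were completed by Mrpl36 (-1.31, or -1.15 once raised), Mrpl40 (-1.29) and Mrps25 (-1.11), which are named after their values were seen. Large subunit symbols are carried by 11 of the 13 and by 45 of all 73 members, and the difference between these shares was not tested.

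The split by subunit and by evolutionary origin gave similar medians in GMP, and differences between these classes were not tested. Small subunit proteins with a bacterial counterpart had a median of -0.54 (12 of 15 lower, 1 at least 2-fold), and those particular to mitochondria -0.74 (10 of 10 lower, 1 at least 2-fold). Large subunit proteins with a bacterial counterpart had a median of -0.70 (26 of 28 lower, 8 at least 2-fold), and those particular to mitochondria -0.70 (17 of 19 lower, 3 at least 2-fold). Of all genes above the floor, 55.2% were lower and 3.16% at least 2-fold lower. Mrps12, of the decoding site, read 5.18 in Trib1-/- GMP and 5.76 in wild-type GMP (-0.58).

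Symbols do not always follow function in this family. Mrps30 and Mrps18a carry small subunit symbols but their proteins sit in the large subunit, and they differed by -0.36 and -0.63 in GMP. Among the 3 related Mrps18 genes, Mrps18b hardly moved over the arrays, reading 6.97 in Trib1-/- GMP, 7.03 in wild-type GMP, 7.05 in Trib1-/- MDP and 6.99 in wild-type MDP. Its range of 0.0836 was the narrowest of all members. Mrps18c differed by -0.62 in GMP. Mrps36 is now known as a subunit of the 2-oxoglutarate dehydrogenase complex and not of the ribosome. It read 6.73 in Trib1-/- GMP and 6.75 in wild-type GMP, a difference of -0.02. By the mean reading of their probe sets, which does not rank the RNAs of different genes, the highest members were Mrpl24, Mrps18b, Mrps36 and Mrpl41 (6.83 in Trib1-/- GMP and 7.57 in wild-type GMP), and the lowest Mrps27, Mrpl58, Mrpl10 and Mrpl4 (3.15 in Trib1-/- GMP and 3.57 in wild-type GMP).

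Only 7 of 73 members read higher in Trib1-/- GMP than in wild-type GMP, all by less than 0.5. The highest 3 were Mrps7 (5.10 in Trib1-/- GMP and 4.68 in wild-type GMP, 0.41), Mrpl15 (6.24 and 5.83 in the same arrays, 0.41) and Mrpl57 (5.87 and 5.58, 0.29). Mrps7 and Mrpl15 have bacterial counterparts and Mrpl57 is particular to mitochondria. The second probe set of Mrpl57 read 3.72 in Trib1-/- GMP and 5.14 in wild-type GMP, a difference of -1.42, so the direction of this gene depends on the probe set. Of the 7 probe sets of Mrpl15 above the floor, 4 were lower in Trib1-/- GMP, by up to -0.81. Mrps5 also read higher by the probe set used (0.24), while its other probe sets read -0.63 and -0.69.

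The spread that these arrays allow to be measured is that between probe sets of one gene. For 33 members several probe sets were above the floor (88 probe sets). The SD within a gene was 0.56 for the GMP genotype difference and 0.42 for the MDP one, which says nothing of the spread from one mouse, sort or array to the next. In 17 of these 33 genes the probe sets had 1 direction in GMP, below 0 in 16 and above 0 in 1. The 55 probe sets that were not used for a gene had a median of -0.40 in GMP, and 39 of them were below 0. Over all 128 member probe sets above the floor the median was -0.60, against -0.06 over all named probe sets above it. Of the 13 members at least 2-fold lower, 5 had several probe sets, and in 3 of the 5 all were lower. Mrpl51, a large subunit protein particular to mitochondria, was one of the members with opposed probe sets: its 3 read -0.74, 0.10 and 0.68 in GMP.

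**Figure D2:**
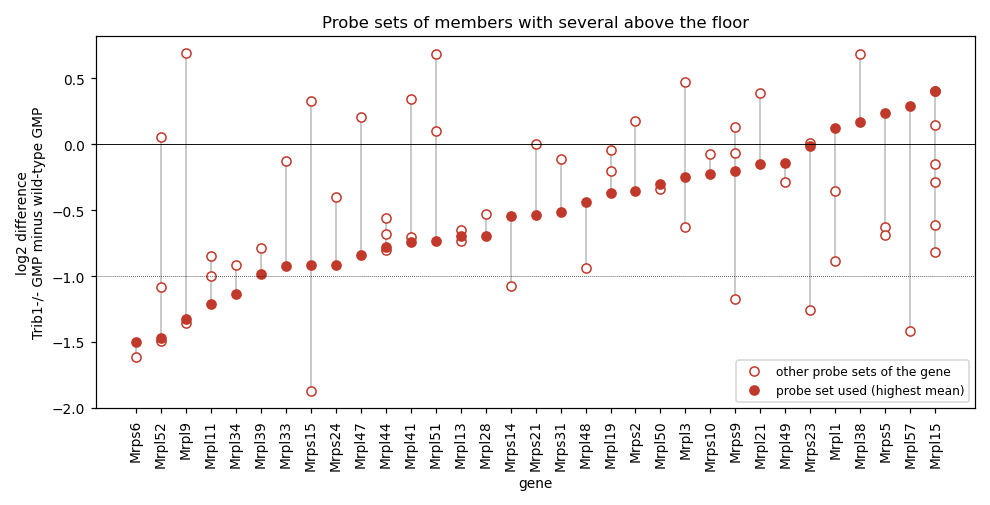
Log2 difference of Trib1-/- GMP minus wild-type GMP (vertical axis) for each probe set of the 33 members with several above the floor, with the probe set used filled and the others open. Mrps6, Mrpl11 and Mrpl34 have all their probe sets above the floor between -1.61 and -0.85, while Mrpl9, Mrpl51 and Mrpl57 have probe sets on both sides of 0.

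The members' median in GMP was below that of the other genes in each range of signal. Genes above the floor were split into quartiles by their mean over the arrays, and in GMP the members of the lowest quartile (12 genes) had a median of -0.80, where the other genes of that quartile were at -0.0044. In the second quartile 22 members had a median of -0.64 against -0.03, in the third 23 members -0.69 against -0.08, and in the highest 16 members -0.47 against -0.09. At least 2-fold lower in the highest quartile were 0 of the 16 members and 1.86% of the other genes. In the lowest quartile 9 of the 12 members were under the floor on some array, and 4 passed it on a single array, so their difference is in part set by the floor. With values raised to the floor the median there was -0.66, and the 3 members above it on all arrays had a median of -0.70. Members span little of the genome: 51 of 73 have a gene span of up to 10000 bases. Among the 11653 genes above the floor, 1367 others span up to 5000 bases and 1468 others from there to 10000. Among genes of up to 5000 bases the 23 members had a median of -0.74 in GMP, against -0.13 for the 1367 other genes of that span, of which 7.61% were at least 2-fold lower, and over 50000 bases the 6 members had -0.32 against 0.05 for 3329 others, of which 1.14% were. Short genes as a whole thus read lower in Trib1-/- GMP than long ones, and the part of this in the members' difference was not tested.

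Some measurements of the arrays themselves differed between genotypes. The 10 probe sets of the hybridisation controls BioB and BioC, which are added to the labelled RNA in fixed amounts, averaged 10.78 in Trib1-/- GMP and 10.42 in wild-type GMP, and read 0.28 to 0.45 higher on the Trib1-/- array in each case. In MDP they averaged 10.93 in Trib1-/- and 11.05 in wild type. The 8 probe sets of the more abundant controls BioDn and Cre averaged 13.72 in Trib1-/- GMP and 13.71 in wild-type GMP, and 13.74 in Trib1-/- MDP and 13.76 in wild-type MDP. The distance from the 3′ to the 5′ probe set, a sign of RNA integrity and priming, was 1.20 in Trib1-/- GMP and 1.06 in wild-type GMP for Gapdh, and 1.91 and 2.01 in the same arrays for Actb. In MDP it was 1.66 in Trib1-/- and 1.44 in wild type for Gapdh, and 1.67 and 2.01 in the same arrays for Actb, so the genotypes lay further apart there. Basophil and mast cell markers (7 of 7 above the floor) averaged 4.23 in Trib1-/- GMP, from 1.62 to 6.20, and 5.82 in wild-type GMP, from 4.33 to 7.11. The part of these in the members' difference was not tested.

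In MDP the members showed little difference between genotypes. The median was -0.08 (interquartile range -0.33 to 0.14), against 0.01 for all genes above the floor, and 44 of 73 members were lower in Trib1-/- MDP, against 48.5% of all genes. At least 2-fold lower were 4 members, against 1.53% of all genes, and 0 were at least 2-fold higher, against 1.10% of all genes. All 4 read under the floor on the Trib1-/- MDP array, and 1 of them, Mrps24, stayed past 2-fold once values were raised to the floor. Among the 60 members above the floor on all arrays 0 were 2-fold apart, with a median of -0.10. Few genes were on the whole: of the 9265 genes above the floor on all arrays, 54 were at least 2-fold lower and 49 higher in MDP, with a median of 0.02.

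Mrps24, a small subunit protein with a bacterial counterpart at the mRNA entry side, read 3.27 in Trib1-/- MDP and 4.72 in wild-type MDP (-1.45). The other probe set of Mrps24 had the opposite sign (0.28). Mrps26, particular to mitochondria, read 2.65 in Trib1-/- MDP and 4.05 in wild-type MDP (-1.40, or -0.77 once raised). Mrpl27, whose bacterial counterpart reaches towards the peptidyl transferase centre, read 2.30 in Trib1-/- MDP and 3.69 in wild-type MDP (-1.39, or -0.40 once raised). Mrpl50 read 2.79 in Trib1-/- MDP and 3.98 in wild-type MDP (-1.18, or -0.69 once raised), and its other probe set read -0.22. Mrps18a read 2.37 in Trib1-/- MDP and 3.29 in wild-type MDP (-0.92, or -0.0039 once raised). For these 5 the Trib1-/- MDP array was the lowest of the 4 and below the floor.

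The 3 members with the highest MDP differences were Mrpl58 (2.96 in Trib1-/- MDP and 2.03 in wild-type MDP, 0.93), Mrpl57 (6.24 in Trib1-/- MDP and 5.36 in wild-type MDP, 0.88) and Mrps35 (4.25 in Trib1-/- MDP and 3.58 in wild-type MDP, 0.67). Both Mrpl58 readings were below the floor, and Mrpl57 again had a second probe set in the other direction (-0.32). Mrps36 read 6.72 in Trib1-/- MDP and 7.16 in wild-type MDP (-0.45). Resident macrophage markers (6 of 8 above the floor on some array) averaged 3.57 in Trib1-/- MDP, from 1.94 to 4.24, and 5.80 in wild-type MDP, from 4.27 to 7.11, and their part in the MDP values of the members was not tested.

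The GMP and MDP genotype differences share no array. Of the 73 members, 40 were lower in Trib1-/- cells in both, 26 were lower in GMP and higher in MDP, 4 were higher in GMP and lower in MDP, and 3 were higher in both. Across members the 2 differences had a Pearson correlation of -0.04, over 73 genes that come from the same arrays and are not independent replicates. No member was at least 2-fold apart in both, and the nearest were Mrps26 (-0.98 in GMP and -1.40 in MDP) and Mrps24 (-0.91 and -1.45). At least 2-fold lower were 13 members in GMP, against 3.16% of all genes, and 4 in MDP, against 1.53%. The direction counts, the correlation and the overlap were not computed over all genes, so none is read as particular to the members.

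**Figure D3:**
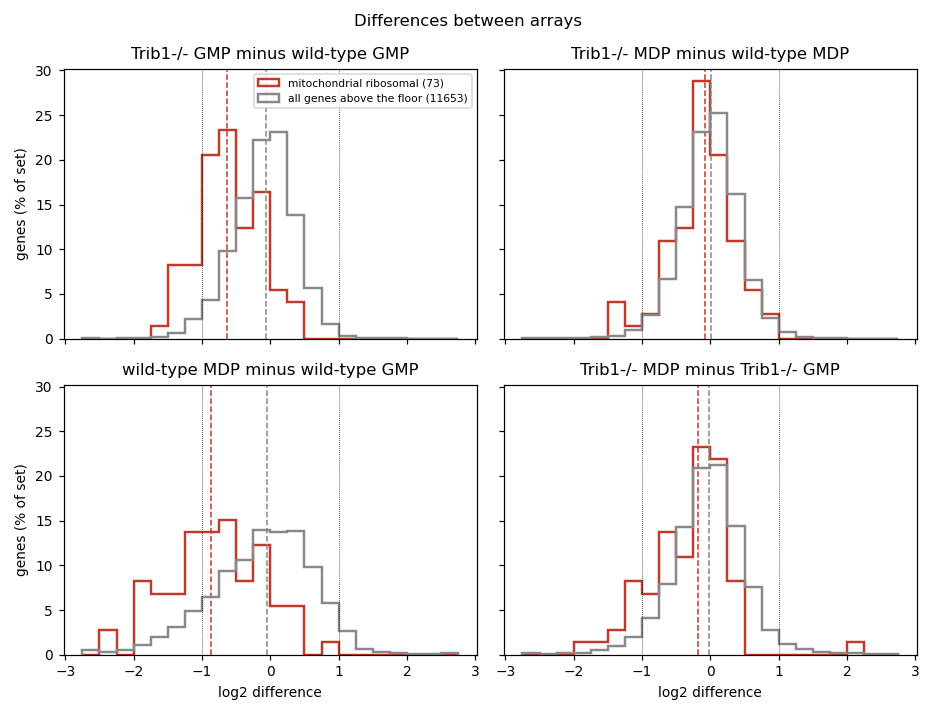
Share of genes (vertical axis, percent of the set) by log2 difference (horizontal axis, values beyond the axis placed in the end bins) for the 4 comparisons, with the 73 members in red and all 11653 genes above the floor in grey; dashed lines mark medians and dotted lines a 2-fold difference. The members lie left of all genes where wild-type GMP is one of the arrays (medians -0.63 and -0.86), and nearer to them in the other comparisons (-0.08 and -0.18).

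Between the cell types in wild type, 64 of 73 members were lower in MDP than in GMP, against 52.6% of all genes, with a median of -0.86 against -0.04. At least 2-fold lower were 28 members, against 12.4% of all genes, and 0 were at least 2-fold higher, against 4.16%. Some members reached the floor through wild-type GMP alone. Among the 60 above the floor on all arrays, 51 were lower, 20 of them at least 2-fold, with a median of -0.73. Of the 9265 genes above the floor on all arrays, 4968 were lower, 1073 of them at least 2-fold, with a median of -0.06. Between the knockout arrays, 50 of 73 members were lower in Trib1-/- MDP than in Trib1-/- GMP, against 51.3% of all genes, with a median of -0.18 against -0.01. Here 10 members were at least 2-fold lower, against 4.08% of all genes, and 1 was at least 2-fold higher, against 2.75%. Among the 60 members above the floor on all arrays, 41 were lower, 5 of them at least 2-fold, with a median of -0.15. Of the 9265 genes above the floor on all arrays, 4739 were lower, 283 of them at least 2-fold, with a median of -0.01. The comparison in wild type shares the wild-type GMP array with the GMP genotype comparison, so the values of the members in these 2 comparisons are not independent. The distance between GMP and MDP in these genes was wider on the wild-type pair of arrays than on the knockout pair, and that difference was not tested.

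The 5 members lowest in wild-type MDP were Mrpl11, Mrpl58, Mrpl16, Mrpl34 and Mrpl17. Mrpl11 read 4.34 in wild-type MDP and 6.79 in wild-type GMP, a 5.47-fold difference (-2.45), where its 2 other probe sets above the floor differed by -1.62 and -1.57. Mrpl16, whose bacterial counterpart helps shape the tRNA sites of the large subunit, read 3.94 in wild-type MDP and 5.94 in wild-type GMP (-1.997). It was also lower in the knockout pair, at 3.86 in Trib1-/- MDP and 5.11 in Trib1-/- GMP (-1.24). Mrpl34 read 3.25 in wild-type MDP and 5.22 in wild-type GMP (-1.97), and Mrpl17 read 3.88 in wild-type MDP and 5.80 in wild-type GMP (-1.92). Mrpl58 read 2.03 in wild-type MDP and 4.40 in wild-type GMP (-2.37, or -1.12 once raised). Mrps12 was 2.30-fold lower and Mrps17, of the small subunit body, 3.25-fold lower in wild-type MDP.

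Members higher in wild-type MDP were 9, none by 2-fold. Mrpl15 differed by 0.83 (6.66 in wild-type MDP and 5.83 in wild-type GMP), but 6 of its 7 probe sets above the floor read below 0, down to -1.26. Mrps36 differed by 0.41 and Mrpl23 by 0.40, each from 1 probe set above the floor. Probe sets of Mrpl33, a small large-subunit protein, went both ways (-0.87 and 0.70), as did those of Mrpl51 (-1.27, 0.07 and 0.66).

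In the knockout pair the lowest members were Mrpl27, Mrps26, Mrpl50, Mrps17 and Mrpl16. Mrpl27 read 2.30 in Trib1-/- MDP and 4.16 in Trib1-/- GMP (-1.86, or -0.87 once raised). Mrps26 read 2.65 in Trib1-/- MDP and 4.27 in Trib1-/- GMP (-1.62, or -0.98 once raised). Mrpl50 differed by -1.49, or -0.9995 once raised, and Mrps17 read 3.70 in Trib1-/- MDP and 5.11 in Trib1-/- GMP (-1.41). Mrps17 and Mrpl16 were above the floor on all arrays, and with values raised to the floor 6 members were at least 2-fold lower. The member at least 2-fold higher was Mrpl23, at 6.27 in Trib1-/- MDP and 4.09 in Trib1-/- GMP (2.18). Mrpl57 (0.38) and Mrpl2 (0.38) followed it. Probe sets of Mrps5 (-0.82 by the one used, 0.86 by another) and Mrps31 (-0.80 and 0.57) went both ways.

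The other genes of mitochondrial translation had medians nearer 0 in GMP, in short lists whose interquartile ranges overlap that of the members, and the difference from the members was not tested. Of all genes above the floor, 55.2% were lower in Trib1-/- GMP and 3.16% at least 2-fold lower. The translation factors, which start, extend and end the chains, had 7 of 10 measured genes lower in Trib1-/- GMP, none 2-fold, with a median of -0.34. The lowest were Gfm1, an elongation factor (4.61 in Trib1-/- GMP and 5.39 in wild-type GMP, -0.77), and Mtfmt, which formylates the initiator tRNA (-0.75), and the highest Guf1 (0.20) and Oxa1l, which inserts new chains into the membrane (0.08). In MDP their median was -0.08, with Gfm2 (-0.22) and Oxa1l (-0.19) lowest and Gfm1 (0.82) and Guf1 (0.50) highest.

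Mitochondrial aminoacyl-tRNA synthetases, which charge the tRNAs, had 5 of 12 lower in Trib1-/- GMP, against 55.2% of all genes, with a median of 0.0039. Nars2 was 2-fold lower (2.91 in Trib1-/- GMP and 3.97 in wild-type GMP, -1.06), and Fars2 differed by -0.72. Both were under the floor in Trib1-/- GMP, and once raised they differed by -0.69 and -0.32, neither 2-fold, while Hars2 (0.58) and Lars2 (0.09) were highest. In MDP their median was -0.11, with Ears2 (-0.82) and Aars2 (-0.78) lowest and Cars2 (0.70) and Rars2 (0.35) highest.

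Genes of ribosome assembly and ribosomal RNA modification had 15 of 19 lower in Trib1-/- GMP, against 55.2% of all genes, with a median of -0.37. The GTPase gene Noa1 was 2-fold lower (5.64 in Trib1-/- GMP and 6.72 in wild-type GMP, -1.09), the helicase gene Dhx30 differed by -0.74, and Mtg1 (0.69) and Mtg2 (0.30) were highest. In MDP their median was -0.09, with Nsun4 (-0.85) and Mpv17l2 (-0.60) lowest and Ddx28 (0.56) and Malsu1 (0.45) highest. Genes of mitochondrial DNA expression and upkeep had a median of -0.14 in GMP (7 of 11 lower, against 55.2% of all genes, none 2-fold). Slirp (-0.96) and Mtpap (-0.66) were lowest and Lrpprc (0.19) and Polg2 (0.17) highest. In MDP their median was -0.09, with Tfam (-0.52) and Twnk (-0.40) lowest and Lrpprc (0.67) and Polg (0.56) highest.

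Of 6 other symbols listed for mitoribosome subunits, 3 were above the floor. Gadd45gip1 was under it, and Aurkaip1 and Ict1 were not among the genes named on the array. In GMP Chchd1 differed by -0.41, Dap3 by -0.38 and Ptcd3 by -0.05, and in MDP by -0.22, -0.10 and -0.10.

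The 2 other families set beside the members were low in Trib1-/- GMP too. Respiratory chain and ATP synthase genes had a median of -0.74 (70 of 77 lower, 19 at least 2-fold), and cytosolic ribosomal protein genes -0.58 (35 of 38 lower, 7 at least 2-fold lower and 1 higher). Of all genes above the floor, 55.2% were lower, 3.16% at least 2-fold lower and 0.481% at least 2-fold higher. In MDP the medians were -0.15 and -0.31. The members' median in GMP lay between those of the 2 families, and the difference from either was not tested.

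**Figure D4:**
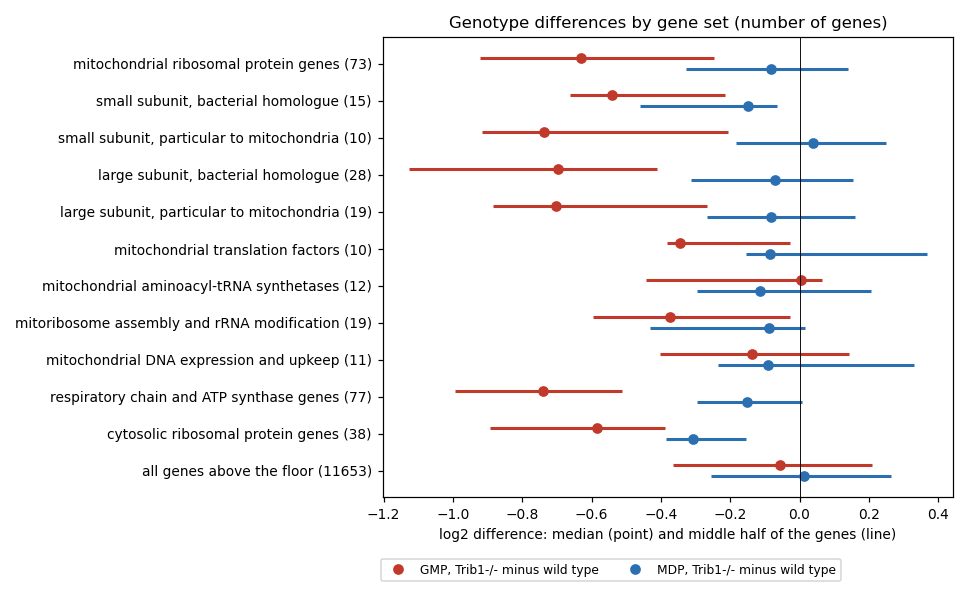
Median (point) and interquartile range (line) of the log2 difference between genotypes for each gene set, with the number of genes above the floor in parentheses, GMP in red and MDP in blue. The 4 classes of ribosomal protein lie between -0.54 and -0.74 in GMP, the other mitochondrial translation sets between -0.37 and 0.0039, and all genes above the floor at -0.06.

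Promoters were examined for what the members share beyond their names. A 300-base promoter, from 250 bases before to 50 after the annotated start, was found in RefSeq (GRCm38.p6) for 65 of the 73 members (71 promoters). NRF1, the ETS family factor GABP and YY1 are transcription factors known to regulate nuclear genes of mitochondria, and the 3 motifs below are the forms that were searched, on both strands. The 10-base NRF1 palindrome (the capitals in the first sequences below) was in 4.23% of the members' promoters, 1.97% of promoters of genes above the floor and 0.971% of all 32851 promoters. Its 8-base core GCATGCGC, which the palindrome contains on each strand, was in 11.3%, 4.94% and 2.71%. The ETS motif CCGGAAG was in 35.2%, 16.3% and 8.86%, and the YY1 motif AAGATGGCG in 9.86%, 2.82% and 1.40%.

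At least one of the core, ETS and YY1 motifs was in 47.9% of the members' promoters and in 22.3% of the promoters of genes above the floor. The motifs CCAAT (40.8% and 37.4% in the same 2 sets), TATAAA (7.04% and 8.23%) and CACGTG (9.86% and 9.61%) were about as frequent in members as in other genes above the floor. Base composition was alike: the median promoter held 58.3% G and C in members and 60.3% in genes above the floor, with 21 and 19 CG pairs. These are matches of letters and not shown to be sites.

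**Figure D5:**
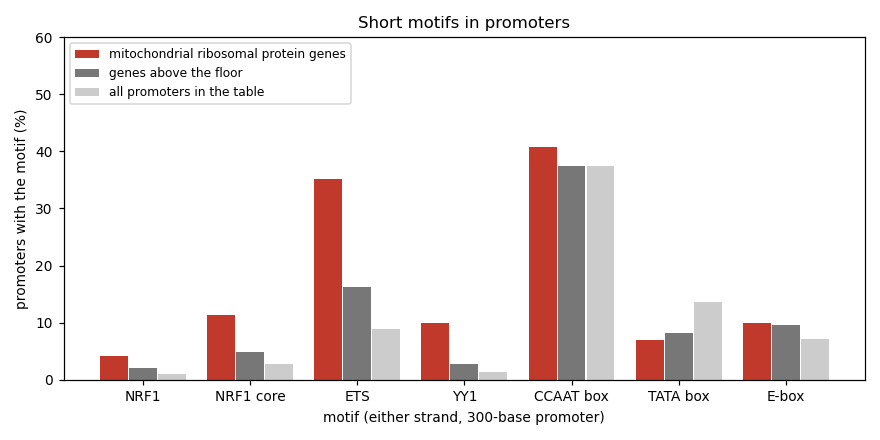
Share of 300-base promoters (vertical axis, percent) that hold each motif on either strand, for the members (red), genes above the floor (dark grey) and all promoters in the table (light grey). The ETS motif is in 35.2% of the members' promoters, against 16.3% of those of genes above the floor, while the CCAAT, TATA and E-box motifs differ less.

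The 3 members with the 10-base palindrome were Mrpl9, Mrpl39 and Mrpl32, named for this match. They are shown to let the motif be seen in its setting, 5′ to 3′ in the direction of the gene, as windows of 100 bases with the palindrome in capitals, centred at -23, -120 and -82 from the start. The windows lie at chr3:94443236-94443335 (plus strand), chr16:84735315-84735414 (minus strand) and chr13:14613070-14613169 (minus strand), all upstream of the first exon.
Mrpl9: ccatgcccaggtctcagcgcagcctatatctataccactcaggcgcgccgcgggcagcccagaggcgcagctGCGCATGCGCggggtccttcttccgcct
Mrpl39: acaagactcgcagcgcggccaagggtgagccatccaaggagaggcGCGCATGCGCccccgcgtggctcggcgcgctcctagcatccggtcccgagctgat
Mrpl32: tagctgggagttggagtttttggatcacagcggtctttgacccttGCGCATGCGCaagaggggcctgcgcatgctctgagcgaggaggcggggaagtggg

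In GMP these 3 genes differed by -1.32 (Mrpl9), -0.98 (Mrpl39, 5.04 in Trib1-/- GMP and 6.03 in wild-type GMP) and -0.50 (Mrpl32, 6.12 and 6.62 in the same arrays). In MDP they differed by 0.46, 0.03 and -0.31. The other probe set of Mrpl39 above the floor read -0.71 in MDP, and those of Mrpl9 read 0.08 and 0.11. The 8 members with the core had a median of -0.95 in GMP (-0.81 once raised), against -0.63 for the members without it. These medians were not compared by a test.

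The YY1 motif was in the promoters of 7 members, named for this match, and in 6 of them it lay 15 to 40 bases after the annotated start. The sequences are given to let the motif be seen in its setting, as windows of up to 30 bases with the motif in capitals, on the strand of the gene. They share the capitals because they were chosen for them, so this likeness is not a result. Mrps27 lies at chr13:99344789-99344818, Mrps18a at chr17:46111004-46111033, Mrpl35 at chr6:71823743-71823772, Mrpl37 at chr4:107066822-107066851, Mrpl42 at chr10:95501904-95501933 and Mrps24 at chr11:5707652-5707676. The first 2 are on the plus strand and the others on the minus strand.
Mrps27: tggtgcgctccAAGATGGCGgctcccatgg
Mrps18a: aggtgcgttccAAGATGGCGgccctcaggg
Mrpl35: aggcaggctgcAAGATGGCGgcttccatct
Mrpl37: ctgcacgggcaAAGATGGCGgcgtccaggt
Mrpl42: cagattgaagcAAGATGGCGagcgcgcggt
Mrps24: cgcgccggcccAAGATGGCGtggtc

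The 7th, Mrpl36, has the motif on the other strand, centred at -27 from the start. In GMP the 7 genes had a median of -0.92, against -0.62 for the members without the motif. The largest of their differences was that of Mrpl36 (-1.31), and the smallest that of Mrpl37 (4.04 in Trib1-/- GMP and 4.28 in wild-type GMP, -0.23). Mrpl35 read 5.34 in Trib1-/- GMP and 6.27 in wild-type GMP, and Mrpl42 read 6.49 in Trib1-/- GMP and 7.48 in wild-type GMP. Mrps24 differed by -0.91 and Mrps27 by -0.92, which was -0.08 once raised, since it passed the floor in wild-type GMP alone. Raised, the median of the 7 genes was -0.91. The medians with and without the YY1 motif were not compared by a test.

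With the ETS motif the median was nearer 0 than without it, and this was not tested. The 25 members that hold it had a median of -0.58 in GMP, against -0.70 for those without it, and -0.08 against -0.13 in MDP. In GMP Mrpl52 (-1.47), Mrpl58 (-1.35) and Mrpl17 (-1.13) hold it, as do Mrps18c (-0.62) and Mrpl18 (-0.33), the last named after its value was seen. Among the genes of the factors themselves, Nrf1 read 6.40 in Trib1-/- GMP and 6.01 in wild-type GMP (0.40), Gabpa 5.81 and 5.87 (-0.06), and Yy1 7.35 and 7.42 (-0.07). The regulator list as a whole had a median of -0.06 in GMP, with Myc lowest (6.78 in Trib1-/- GMP and 7.56 in wild-type GMP, -0.78) and then Gabpb2 (-0.40), and with Ppargc1a (0.75) and Esrra (0.43) highest. In MDP its median was 0.04, with Esrra (-0.80, or -0.46 once raised) and Ppargc1b (-0.31) lowest and Gabpb1 (0.76) and Ppargc1a (0.29) highest.

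Many members face a neighbour. Of the 65 members with a promoter, 23 (35.4%) had a start on the other strand, pointing away, within 1000 bases, against 19.1% of genes above the floor. Some neighbours belong to mitochondria as well: Mrpl46 faces Mrps11 across 42 bases, Mrpl43 faces the helicase gene Twnk across 116 bases, Mrps12 faces the seryl-tRNA synthetase gene Sars2 across 147 bases and Mrpl47 faces Ndufb5, of the respiratory chain, across 308 bases. Others do not, such as Mrpl40 and the histone chaperone gene Hira, 113 bases apart. These pairs are named after their values were seen.

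Members and neighbours were set side by side in GMP, with no test. In the 19 pairs whose neighbour was above the floor, the members had a median of -0.53 in GMP and the neighbours -0.19, with 11 of 19 neighbours (57.9%) below 0, against 55.2% of all genes. The member was the lower of the pair in 11 pairs and the neighbour in 8. Mrpl40 differed by -1.29 and Hira by 0.05. Mrpl2 differed by -1.20 and Klc4, which encodes a kinesin light chain, by 0.34. The other way round, Mrpl49 differed by -0.14 and the ribosomal protein fusion gene Fau by -1.16, Mrpl32 by -0.50 and the proteasome gene Psma2 by -0.85, and Mrpl27 by -0.53 and Eme1 by -0.80. Mrpl47 and Ndufb5 were alike in GMP (-0.84 and -0.87) but not in MDP (0.34 and -0.94), and Mrps12 and Sars2 differed by -0.58 and -0.38 in GMP. The members lie on 17 chromosomes, with the most on chromosome 11 (11 members) and chromosome 17 (7 members).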

How the data were processed

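The deposited table holds 4 arrays and 45101 probe sets as log2 values. RMA is the only tool the submitters' processing notes name for these log2 values, with no version, and in its usual form it corrects background, quantile-normalises and summarises probes. The log2 scale was inferred from the values (0.14 to 14.5). Such scaling hides a change in total RNA per cell. Per the labels' protocols, total RNA was taken up in Trizol and labelled as biotinylated cRNA (NuGEN Ovation).

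Of the probe sets, 64 were controls, 34945 had 1 symbol, 932 had several and 9160 were not listed in the platform annotation; 18193 genes were named. Members matched a RefSeq gene table by identifier (76 of 76, 0 symbols changed). Probe sets shared by a member and another gene (4) were not named. Differences were formed for genotype in each cell type and for cell type in each genotype, with no test. Alternatives were other floors, probe set rules, scalings, added constants and fold sizes. The calculation was tested on simulated data. Named were, per difference, the 5 lowest and 3 highest members, the 4 highest and 4 lowest by mean reading, members 2-fold apart in both cell types, members with opposed probe sets, 8 members of special role, those around the floor, and the 2 lowest and highest genes of each other list. Members, lists and motifs were chosen with earlier results of these data known. Tools were Python 3.11.15, pandas 2.3.3 and limma 3.58.1 (cyclic loess, an alternative scaling).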

Additional observations from a re-analysis of the deposited data

Results flagged for a closer look

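For 3 named members the genotype difference had opposite signs in GMP and MDP with a size of at least 0.5 in each, with 1 array per group, so the difference between the cell types was not tested. Mrpl58 read -1.35 in GMP and 0.93 in MDP, Mrps27 read -0.92 in GMP and 0.64 in MDP, and Mrps35 read -0.67 in GMP and 0.67 in MDP. Mrpl58 and Mrps27 were above the floor on 1 array only, that of wild-type GMP, and with values raised to the floor their differences were -1.12 in GMP and 0.00 in MDP for Mrpl58, and -0.08 in GMP and 0.00 in MDP for Mrps27. Mrps35 was above the floor on all 4 arrays.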

How the results depend on the processing

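The median of the members stayed below 0 in all 4 comparisons under every alternative run. In GMP (-0.63) it was -0.48 with probe sets of a gene averaged, -0.52 with each array centred on its median above the floor and -0.30 with 32 added to the linear values. Centring moved the median of all genes from -0.06 to 0.05 in GMP and from -0.04 to 0.10 for cell type in wild type. For cell type in wild type (-0.86) the members' median was -0.75 with no floor, -0.75 with values raised to the floor, -0.63 with the mean of probe sets, -0.67 without probe sets of suffix _s_at, _x_at or _a_at, -0.68 with centring, -0.35 with 32 added and -0.73 for members over the floor throughout. The settings keep different numbers of members, so a lower count can come from fewer members. The shares of all genes under these settings are not given here. The count of members 2-fold lower in GMP (13 of 73) was 8 of 54 with a floor at the 75th percentile. It was 7 of 69 with the mean of probe sets, 0 of 73 with 32 added and 8 of 60 above the floor on all arrays. In MDP (4 of 73) it was 2 of 54 with the higher floor and 1 of 73 raised. It was 0 of 69 with the mean of probe sets, 0 of 73 with 32 added and 0 of 60 above the floor on all arrays. For cell type in wild type (28 of 73) it was 16 of 69 with the mean of probe sets. It was 18 of 56 without the suffixes and 4 of 73 with 32 added. For cell type in knockout (10 of 73) it was 6 of 73 raised and 4 of 69 with the mean of probe sets. It was 0 of 73 with 32 added and 5 of 60 above the floor on all arrays. At 1.5-fold the counts lower were 39 (GMP), 9 (MDP), 47 (cell type in wild type) and 22 (in knockout), with 5 higher in MDP and 1 higher for cell type in wild type. At 4-fold they were 0, 0, 2 and 0 in the same order. The shares of all genes at 1.5-fold and 4-fold were not counted. These counts therefore show only how the members' own counts move with the size rule. Of 1164 values of named members, 27 changed sign: 10 with probe sets averaged, 7 without the suffixes, 5 with cyclic loess and 5 with centring. Among them were Mrpl51 in GMP (-0.74, then 0.68 without the suffixes), Mrpl11 in MDP (0.35, then -0.61 without the suffixes), and Mrpl15 with probe sets averaged, in GMP (0.41, then -0.14) and for cell type in wild type (0.83, then -0.30). Values past 2-fold changed sign in 2 cases, both without the suffixes: Mrpl51 for cell type in wild type (0.66) and Mrpl52 in GMP (0.0552), each then read from another probe set. The tolerance for a median (0.1) was set after the data were seen, and the cause of the other changes was not tested. No paired analysis was possible because no group has a second replicate to pair. A fit of genotype with cell type as a block, which would take the difference between cell types for error, was not run. Signal near background limits the values of the 13 members under the floor on some array.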
